A study of Mus musculus with 12 samples.

Results

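Fap, Dpp4 and 8 further genes used to mark the surface or identity of fibroblasts were followed across mouse pancreas tumours. The tumours came from lines named for a suicide gene aimed at cells that express FAP or aSMA. The set of 10 genes comprised Fap, Dpp4, Pdgfra, Pdgfrb, Pdpn, Thy1, Cdh11, Lrrc15, Ly6a and S100a4, with each gene read from the probe set of highest mean among those carrying that symbol alone. Of the 10 genes, 8 could be read in this way, out of 30142 genes in the whole array table. Ly6a, which encodes the small GPI-anchored stem cell and stromal antigen Sca-1, was paired with no probe set in the platform annotation used here. The only probe set naming Pdgfra, the PDGF receptor of most tissue fibroblasts, carried 3 symbols, so no level was assigned to that gene.

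The arrays measured total RNA of whole pancreas tumours from 12 PKT mice, 3 per group, each mouse on 1 array. PKT is the labels' name for the tumour-bearing genotype that all 4 groups share. The groups were PKT mice of the FAP-TK line labelled FAP depleted, FAP-TK controls labelled as not depleted, PKT mice of the aSMA-TK line labelled aSMA depleted, and aSMA-TK controls labelled as not depleted. TK is a thymidine kinase that turns ganciclovir into a toxic product, so that cells expressing the transgene die when the drug is given. The ganciclovir protocol, at 50 ug per kg, is attached to all 12 samples. The labels used here do not say whether control mice carried the transgene or received drug, or what ages the mice were. By their names the transgenes follow FAP or aSMA (Acta2) expression, so any other cell using those promoters would also be targeted, and depletion in these tumours was given by the label alone.

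FAP and DPP4 are closely related serine peptidases of the cell surface that cut after proline, and FAP in particular is known as a marker of activated fibroblasts in carcinomas. PDGF receptors, podoplanin, Thy1, cadherin-11 and Lrrc15 are other surface proteins by which stromal fibroblasts are sorted or subdivided, whereas S100A4 is a calcium-binding protein of the cytoplasm that was introduced as a fibroblast-specific marker and is also made by myeloid and T cells. Most of these proteins are shared with other cells: DPP4 (CD26) with T cells and epithelium, PDGFRB with pericytes, podoplanin with lymphatic endothelium, and Thy1 with T cells and neurons. In the mouse genome Fap and Dpp4 lie close together on chromosome 2, separated in the RefSeq annotation (GRCm38.p6) by Gcg, which encodes glucagon and the DPP4 substrate GLP-1, and by the lncRNA gene Gm13561.

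Promoter sequence was available for 5 of the 10 genes in the RefSeq table (GRCm38.p6), and 3 are printed because Dpp4 is 1 of the peptidase pair and Pdpn and S100a4 varied together across the tumours. Each runs 5′ to 3′ on the gene's strand from 250 bases before to 50 bases after the annotated start, with capitals for matches to the TATA box TATAAA, the GC box GGGCGG, the AP-1 site TGANTCA or the E-box CACGTG on either strand. The Dpp4 window is chr2:62412182-62412481 on the minus strand, the Pdpn window chr4:143299515-143299814 on the minus strand, and the S100a4 window chr3:90603520-90603819 on the plus strand.
Dpp4: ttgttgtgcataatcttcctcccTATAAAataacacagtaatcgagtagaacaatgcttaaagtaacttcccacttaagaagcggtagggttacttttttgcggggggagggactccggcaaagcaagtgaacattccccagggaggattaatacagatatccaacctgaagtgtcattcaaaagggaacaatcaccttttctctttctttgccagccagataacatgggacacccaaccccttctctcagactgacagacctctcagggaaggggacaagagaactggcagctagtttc
Pdpn: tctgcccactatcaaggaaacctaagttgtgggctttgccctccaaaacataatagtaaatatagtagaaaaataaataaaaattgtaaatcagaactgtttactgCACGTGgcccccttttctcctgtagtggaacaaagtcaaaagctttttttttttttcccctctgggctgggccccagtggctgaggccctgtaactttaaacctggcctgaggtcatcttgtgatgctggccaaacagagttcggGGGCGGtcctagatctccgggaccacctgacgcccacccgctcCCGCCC
S100a4: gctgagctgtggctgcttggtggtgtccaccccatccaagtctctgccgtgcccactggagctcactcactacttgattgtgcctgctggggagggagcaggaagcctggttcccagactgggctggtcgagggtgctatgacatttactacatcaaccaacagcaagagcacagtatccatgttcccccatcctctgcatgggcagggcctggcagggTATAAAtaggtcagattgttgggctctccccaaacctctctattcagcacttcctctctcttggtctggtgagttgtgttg

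S100a4 held TATAAA with its first base 31 bases before the start, and Dpp4 held it 227 bases before the start. For Dpp4 the start used by the window lies downstream of the outer end of the RefSeq gene, chr2:62412315. The Dpp4 distance therefore holds only for the start used. Pdpn held no TATAAA in this window but had 2 GC boxes downstream of the start and an E-box 144 bases before it. Of 32851 mouse promoter windows of the same length, 13.6% held TATAAA, 35.7% GGGCGG, 7.81% TGANTCA and 7.15% CACGTG. These matches describe letters in the window and were not tested as sites.

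The arrays differed in quality in a way that touched the FAP line. Positive and negative control probe sets were separated by 2.69 to 2.99 log2 units on 3 arrays, FAP depleted replicate 2 and FAP-TK control replicates 1 and 3, and by 4.32 to 4.89 on the other 9. The median of the deposited values was 4.52 to 4.78 in the 6 FAP-line arrays and 3.98 to 4.15 in the 6 aSMA-line arrays, with no overlap, so line and array processing cannot be told apart in any comparison between lines. All levels below are log2 values after quantile normalization, and a gene was counted as above background on an array where its deposited value passed the 95th percentile of the 5222 negative control probe sets. Fap, Dpp4, Lrrc15 and S100a4 were above this background on 0 of 12 arrays, Pdgfrb and Pdpn on 2, Thy1 on 3 and Cdh11 on 10. Differences are given in log2 units, without conversion to folds, because the deposited values reached 19.9, beyond what a scanner reading on a plain log2 scale can hold.

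**Figure D1:**
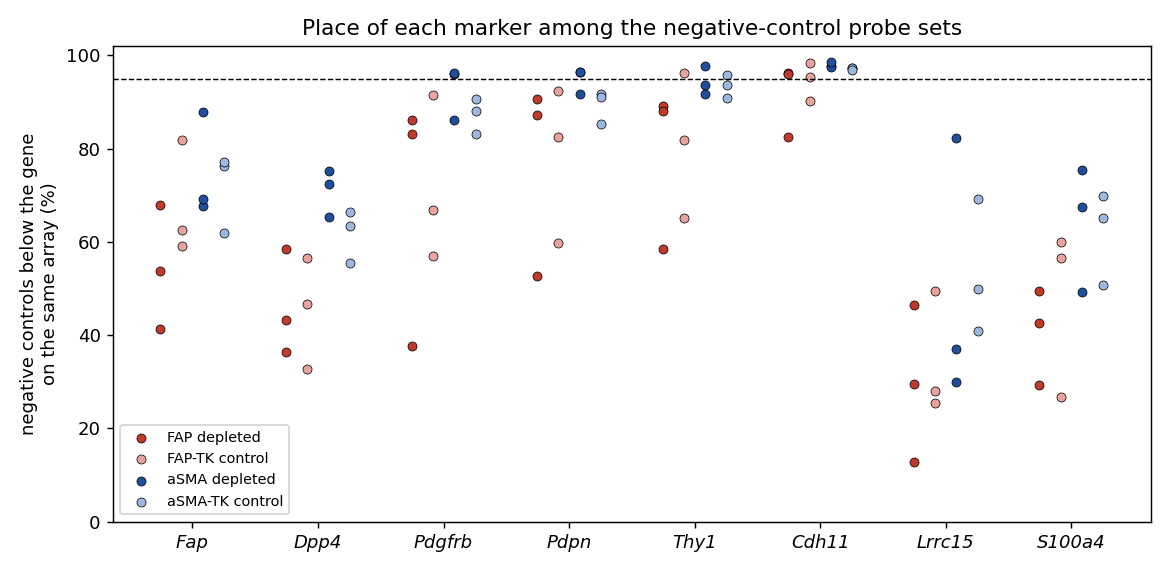
For each of the 8 measured genes, the share of negative control probe sets (percent) that lay below it on each of the 12 arrays, coloured by group, with a dashed line at the 95th percentile used as background. Cdh11 lay highest, with a median of 97.0%, and Lrrc15 lowest, with a median of 39.0%.

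Fap, the gene whose expression was meant to drive the transgene, was read first. Its log2 levels were 5.52, 5.34 and 6.21 in the FAP depleted tumours, against 6.56, 7.31 and 6.53 in the FAP-TK controls. All 3 depleted tumours lay below all 3 controls. The difference was -1.11 ± 0.37 (limma, SE, n = 3 per group) with an unadjusted p of 0.0142 and an adjusted p of 1.00, and the exact two-sided permutation test gave 0.1, the smallest p that 3 against 3 allows. In whole tumour RNA, fewer cells of a type and less RNA per cell cannot be told apart.

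Set against each array's own negative controls, the Fap groups overlapped. Fap exceeded 53.7%, 41.2% and 67.9% of the negative controls in the FAP depleted tumours, against 59.1%, 81.9% and 62.6% in the FAP-TK controls. The lowest of these, FAP depleted replicate 2, and both of the lower controls were the 3 arrays of low control-probe separation. Without those 3 arrays Fap differed by -1.45, from 2 depleted tumours and 1 control.

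Dpp4, the partner peptidase, read 5.03, 5.08 and 5.68 in the FAP depleted tumours, against 5.07, 5.71 and 5.61 in the FAP-TK controls. The groups overlapped, and the difference was -0.20 ± 0.25 (SE).

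Cdh11, a type II cadherin that joins mesenchymal cells, was the brightest of the 8 genes relative to background. Its levels were 9.68, 8.40 and 9.51 in the FAP depleted tumours, against 9.66, 11.98 and 10.77 in the FAP-TK controls. FAP depleted replicate 1 lay just above the lowest control, so the groups overlapped by a narrow margin. The difference was -1.61 ± 0.56 (limma, SE), with an unadjusted p of 0.0180 and an adjusted p of 1.00.

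Thy1, a GPI-anchored glycoprotein of fibroblasts and T cells, read 8.05, 6.34 and 7.83 in the FAP depleted tumours, against 6.97, 9.84 and 8.19 in the FAP-TK controls, a difference of -0.93 ± 0.78. Pdgfrb, the receptor for PDGF-B on pericytes and fibroblasts, read 7.69, 5.15 and 7.28 in the FAP depleted tumours, against 6.45, 8.45 and 6.80 in the FAP-TK controls, a difference of -0.53 ± 0.76. Pdpn, a mucin-type ligand of the platelet receptor CLEC-2, read 7.79, 5.97 and 8.19 in the FAP depleted tumours, against 6.61, 8.65 and 8.24 in the FAP-TK controls, a difference of -0.51 ± 0.68. For all 3 genes FAP depleted replicate 2 was the lowest and FAP-TK control replicate 2 the highest of the 6 arrays, and the groups overlapped.

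Lrrc15, a leucine-rich repeat membrane protein of TGF-beta-driven fibroblasts, read 4.41, 3.64 and 5.10 in the FAP depleted tumours, against 4.64, 5.36 and 4.63 in the FAP-TK controls, a difference of -0.49 ± 0.65. S100a4 read 5.00, 4.67 and 5.26 in the FAP depleted tumours, against 4.70, 5.87 and 6.16 in the FAP-TK controls, a difference of -0.60 ± 0.41. Both genes overlapped between the groups, and neither was above background on any array.

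Across the 8 genes, 0 passed an adjusted p of 0.05 in limma in the FAP line, where 0% of all 30142 genes passed. At an unadjusted p under 0.05, 2 of the 8 passed, Fap and Cdh11, against 3.71% of all genes. All 8 differences lay below 0, with a median of -0.56, whereas 40.1% of all genes lay below 0 and the median of all genes was 0.04. The groups did not overlap, with the depleted tumours lower, for 1 of the 8 genes, against 2.50% of all genes. FAP depleted replicate 2 held the lowest of the 12 levels for 7 of the 8 genes. Without that array 6 of 8 differences lay below 0, without FAP-TK control replicate 2 it was 7 of 8. Leaving out the 3 arrays of low control-probe separation left FAP-TK control replicate 2 as the only control, and that array was already the highest of the FAP line for 7 of the 8 genes, S100a4 being the exception.

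**Figure D2:**
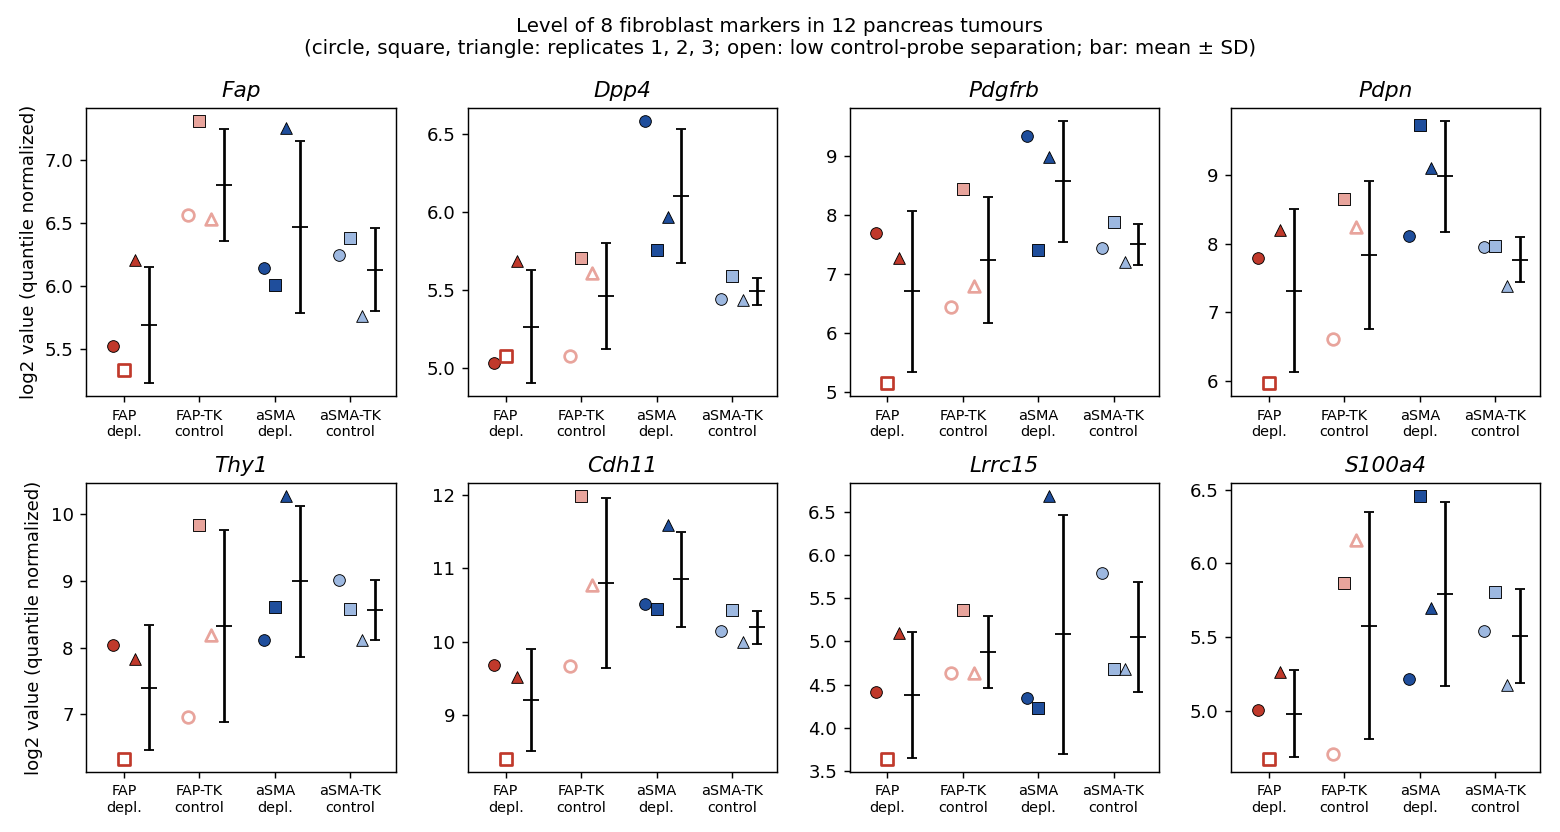
Log2 level (quantile normalized) of each of the 8 measured genes in every tumour, 1 point per tumour, with the mean and SD of the 3 tumours of a group and open symbols for the 3 arrays of low control-probe separation. The 3 FAP depleted tumours lay at 5.34 to 6.21 for Fap, all below the FAP-TK controls at 6.53 to 7.31.

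In the aSMA-TK line the check of the label came from Acta2, which encodes the smooth muscle actin that names the transgene. Acta2 read 10.13, 13.86 and 15.28 in the tumours labelled aSMA depleted, against 12.26, 10.85 and 11.12 in the aSMA-TK controls. The groups overlapped, with 2 of 3 tumours labelled aSMA depleted above all controls. A lower Acta2 level was therefore not seen in this line, and every direction below rests on the label alone. In the FAP line Acta2 differed by -1.69 ± 1.71 (limma, SE). The groups overlapped there too, and the lowest level, 7.84, was on FAP depleted replicate 2.

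Dpp4 read 6.59, 5.76 and 5.97 in the tumours labelled aSMA depleted, against 5.44, 5.59 and 5.44 in the aSMA-TK controls. All 3 tumours labelled depleted lay above all 3 controls. The difference was 0.61 ± 0.25 (limma, SE, n = 3 per group), with an unadjusted p of 0.0371 and an adjusted p of 0.944, and the exact permutation p was 0.1. Set against each array's negative controls the Dpp4 groups overlapped, at 75.2%, 65.4% and 72.5% in the tumours labelled depleted, against 63.4%, 66.5% and 55.5% in the controls. The tumour with the highest Dpp4, aSMA depleted replicate 1, also had the highest mean level of 9 measured T cell markers. That mean was 4.94, against 3.86 to 4.33 on the other arrays. T cell markers were not alone in this. The same array had the highest mean for lymphatic endothelial markers (7.55), PDGF ligands (8.35) and cadherins other than Cdh11 (7.92). It had the lowest mean for acinar markers (6.12). Thy1, also made by T cells, read 8.11 on this array, against 8.11 to 9.01 in the aSMA-TK controls. None of the 9 T cell markers was above background on 6 or more arrays, and their part in the Dpp4 level was not tested.

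Pdpn and Cdh11 showed the same separation. Pdpn read 8.11, 9.73 and 9.10 in the tumours labelled aSMA depleted, against 7.95, 7.97 and 7.38 in the aSMA-TK controls, a difference of 1.21 ± 0.68. Cdh11 read 10.51, 10.44 and 11.59 in the tumours labelled aSMA depleted, against 10.15, 10.43 and 10.00 in the aSMA-TK controls, a difference of 0.65 ± 0.56. For Cdh11 the lowest tumour labelled depleted and the highest control were nearly level. Pdpn exceeded 91.7% to 96.4% of each array's negative controls in the tumours labelled depleted, against 85.2% to 91.6% in the aSMA-TK controls. Cdh11 exceeded 97.4% to 98.5%, against 96.8% to 97.3%. By this measure neither gene overlapped between the groups, by narrow margins. Lymphatic endothelium, another source of podoplanin, was read by 4 measured markers, all higher in this line with a median of 0.62. Their mean level was 7.55, 6.08 and 6.53 in the tumours labelled aSMA depleted, against 5.59, 5.44 and 5.69 in the aSMA-TK controls, and the groups did not overlap. Taken singly, 1 of the 4 markers was separated in this direction, against 7.43% of all genes. In aSMA depleted replicate 1, where the mean was 7.55, Pdpn was at its lowest among the tumours labelled depleted, 8.11. Among the 4 markers Lyve1, a hyaluronan receptor, differed by 2.89 ± 1.00 (limma, SE, adjusted p = 0.944), so the mean leaned on this 1 gene. None of the 4 markers was above background on 6 or more arrays. The cells that made them and their part in the Pdpn level were not tested.

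Fap read 6.15, 6.01 and 7.25 in the tumours labelled aSMA depleted, against 6.25, 6.38 and 5.76 in the aSMA-TK controls, a difference of 0.34 ± 0.37. Thy1 read 8.11, 8.60 and 10.27 in the tumours labelled aSMA depleted, against 9.01, 8.58 and 8.11 in the aSMA-TK controls, a difference of 0.43 ± 0.78. Lrrc15 read 4.34, 4.22 and 6.68 in the tumours labelled aSMA depleted, against 5.79, 4.68 and 4.68 in the aSMA-TK controls, a difference of 0.03 ± 0.65. In each of these 3 genes aSMA depleted replicate 3 was the highest of the 6 arrays, and without it the differences became -0.05 for Fap, -0.21 for Thy1 and -0.77 for Lrrc15.

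Pdgfrb read 9.34, 7.40 and 8.98 in the tumours labelled aSMA depleted, against 7.44, 7.88 and 7.20 in the aSMA-TK controls, a difference of 1.06 ± 0.76. S100a4 read 5.21, 6.46 and 5.70 in the tumours labelled aSMA depleted, against 5.54, 5.80 and 5.17 in the aSMA-TK controls, a difference of 0.28 ± 0.41. Both overlapped between the groups. All 7 measured pericyte markers were higher in this line, with a median difference of 0.69, and their mean level was 6.81 to 6.88 in the tumours labelled aSMA depleted, against 5.96 to 6.32 in the aSMA-TK controls. In aSMA depleted replicate 2, where that mean was 6.81, Pdgfrb lay below 2 of the 3 controls. Of these 7 markers, 1 was above background on 6 or more arrays, and their part in the Pdgfrb level was not tested.

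In the aSMA line 0 of the 8 genes passed an adjusted p of 0.05 in limma, where 0% of all genes passed, and adjusted p lay between 0.944 and 0.998. At an unadjusted p under 0.05, 1 of the 8 passed, Dpp4, against 4.81% of all genes. All 8 differences lay above 0, with a median of 0.52, whereas 53.2% of all genes lay above 0 and the median of all genes was 0.01. The groups did not overlap, with the tumours labelled depleted higher, for 3 of the 8 genes, against 7.43% of all genes. The direction rested partly on aSMA depleted replicate 3, which held 1 of the 2 highest levels for 7 of the 8 genes and without which 5 of 8 differences lay above 0.

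The lines were then compared in their response by subtracting the difference in the FAP line from that in the aSMA line. The term was 1.45 ± 0.53 for Fap, 0.81 ± 0.36 for Dpp4 and 2.26 ± 0.80 for Cdh11, the 3 genes of 8 that passed an unadjusted p of 0.05 in limma, against 5.96% of all genes. All 8 terms lay above 0, with a median of 1.40, against 46.4% of all genes above 0. Their sign was fixed by the signs within the lines, given above, and is no further result. The 3 arrays of low control-probe separation all lay in the FAP line. At an adjusted p of 0.05, 0 of the 8 passed, as did 0% of all genes, and the smallest adjusted p among the 8 was 0.829.

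**Figure D3:**
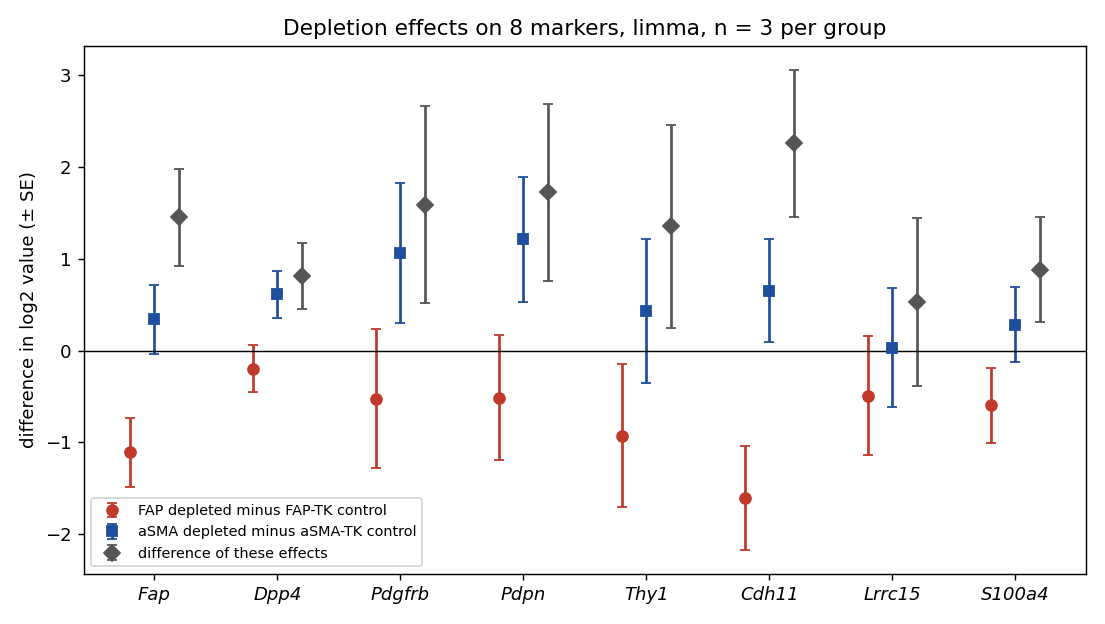
Log2 difference with its limma standard error for each of the 8 measured genes, FAP depleted minus FAP-TK control and aSMA depleted minus aSMA-TK control, with the aSMA-line value minus the FAP-line value in grey. The 8 differences lay at -1.61 to -0.20 in the FAP line and at 0.03 to 1.21 in the aSMA line.

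Between the undepleted tumours, Fap was read in the same way. Its 3 aSMA-TK controls, given above, lay below all 3 FAP-TK controls, and the difference was -0.67 ± 0.37 (limma, SE, adjusted p = 0.266). Fap was 1 of 8 members separated in this direction, a share near that of all genes, 13.8%. At an adjusted p of 0.05, 0 of the 8 members passed, against 7.80% of all genes, and at an unadjusted p of 0.05 it was 0 of 8, against 28.2%. The Fap difference depended on the scaling. In the values as deposited it was -1.60 with an adjusted p of 0.00510 in limma, where 12443 of 30142 genes passed, while the median of all genes stood at -0.39, which leaves -1.21 relative to that median. With each array centred on its median it was -1.15 with an adjusted p of 0.0491, where 5769 genes passed.

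The other 7 members had differences of -0.61 to 0.27 between the control groups after quantile normalization, with 4 of the 8 members higher and 4 lower in the aSMA-TK controls, where 58.2% of all genes were higher. All 8 were lower in the aSMA-TK controls in the values as deposited and after median centring. Spread also differed: the SD of a member over 3 tumours had a median of 0.33 in the aSMA-TK controls, against 0.92 in the FAP-TK controls.

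Taking all 4 groups at once, the order of the Fap means was FAP-TK control (6.80), aSMA depleted (6.47), aSMA-TK control (6.13) and FAP depleted (5.69). Neighbours in that order differed by less than the SD of at least 1 of the neighbouring groups. The order for Dpp4 was aSMA depleted (6.10), aSMA-TK control (5.49), FAP-TK control (5.46) and FAP depleted (5.26), with the gap below the first group larger than either SD and the later neighbours within their spread. In limma's F test, 0 of the 8 genes passed an adjusted p of 0.05, against 6.68% of all genes. Dpp4 alone of the 8 passed an unadjusted p of 0.05, against 26.0% of all genes.

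The members varied together from tumour to tumour. Of 28 pairs among the 8 measured genes, 28 had a Pearson r above 0 over the 12 arrays, 14 had an adjusted permutation p under 0.05 for r, and 8 for Spearman's rho. Thy1 and Cdh11 had the highest r, 0.90 (rho 0.86, adjusted permutation p = 0.00658 and 0.00840), and r was 0.79 without the 2 arrays farthest from the Thy1 median. Within lines this pair had an r of 0.93 in the FAP line and 0.84 in the aSMA line, over 6 arrays each.

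Fap followed Cdh11 most closely, with r of 0.85 (adjusted permutation p = 0.00775) and rho of 0.62 (adjusted permutation p = 0.0707). The r was 0.64 without the 2 arrays farthest from the Fap median, 0.88 within the FAP line and 0.93 within the aSMA line. Pdpn and S100a4 had an r of 0.85 (adjusted permutation p = 0.00658) and a rho of 0.87, with r of 0.71 without the 2 farthest arrays and 0.83 within each line. The peptidases themselves were less alike, with an r of 0.40 between Fap and Dpp4 (rho 0.37, adjusted permutation p = 0.222 and 0.303).

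By Pearson's r, Dpp4 followed Pdgfrb most closely, with r of 0.77 (adjusted permutation p = 0.0180) and rho of 0.62 (adjusted permutation p = 0.0707). That r was 0.85 without the 2 farthest arrays, 0.53 within the FAP line and 0.89 within the aSMA line. By rank, Dpp4 was closest to Pdpn, with rho of 0.83 (adjusted permutation p = 0.0123) and r of 0.60 (adjusted permutation p = 0.0741). With Cdh11 its rho was 0.71 (adjusted permutation p = 0.0473) and its r 0.57 (adjusted permutation p = 0.0942). The number of pairs passing depended on single arrays. It was 3 without aSMA depleted replicate 3, 4 without FAP depleted replicate 2, 23 without aSMA depleted replicate 1 and 4 without the 3 arrays of low control-probe separation. The points share array quality and tissue makeup, and the part of either in these correlations was not tested.

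**Figure D4:**
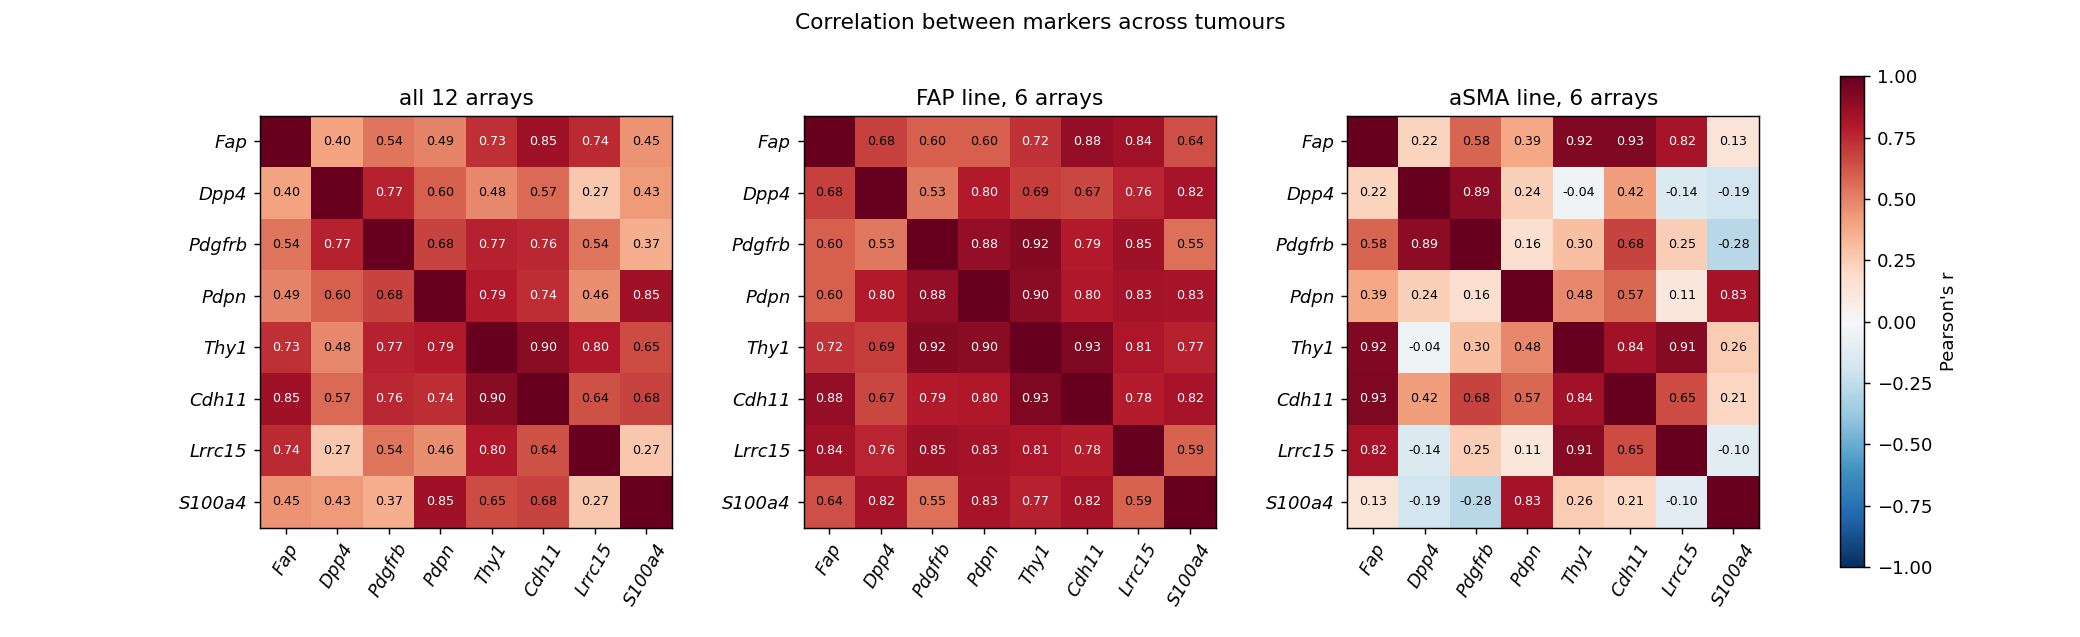
Pearson's r between each pair of the 8 measured genes over all 12 arrays, over the 6 FAP-line arrays and over the 6 aSMA-line arrays. All 28 pairs lay above 0 over 12 arrays, whereas in the aSMA line Dpp4 and S100a4 had values down to -0.19 and -0.28 with other members.

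Among 2577 genes above background on 6 or more arrays, the genes whose levels most resembled those of Fap over the 12 arrays were Cdh11, Igfbp3 (r = 0.80), Slc50a1 (0.77), Col1a2 (0.73) and Mfap5 (0.72). Igfbp3 encodes a binding protein of insulin-like growth factors, Slc50a1 a sugar transporter, Col1a2 a chain of type I collagen and Mfap5 a microfibril protein. The genes most like Dpp4 were Gpx3 (r = 0.88), a secreted glutathione peroxidase, Prelp (0.83), a matrix proteoglycan, Tmem176a (0.83), Stt3b (0.83), a subunit of the oligosaccharyltransferase, and Ppp6c (0.83), a protein phosphatase. These values are given as a description over 12 arrays, with no p. Within each line every r was above 0, but unevenly for some genes. Slc50a1 with Fap had an r of 0.97 in the FAP line and 0.36 in the aSMA line. Tmem176a with Dpp4 had 0.46 in the FAP line and 0.96 in the aSMA line.

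Genes of the pathways around the members were counted by list. Of 9 genes grouped with Dpp4 by name or as prolyl peptidases, 5 were higher and 4 lower in the FAP line. The 9, among them Dpp8 and Prep, had the same numbers in the aSMA line, and 0 passed an adjusted p of 0.05 in either. The largest named difference was 0.78 ± 0.51 for Prep, a cytosolic prolyl oligopeptidase, in the FAP line. Between the control groups 1 of the 9 passed, near the 7.80% of all genes that did: Dpp8, a cytosolic dipeptidyl peptidase, averaged 10.13 ± 0.21 in the aSMA-TK controls, against 10.74 ± 0.20 in the FAP-TK controls (SD, n = 3 each, limma adjusted p = 0.0371).

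Of 19 substrates and partners of FAP and DPP4, 13 were higher and 6 lower in the FAP line, and 11 were higher and 8 lower in the aSMA line, with 0 passing an adjusted p of 0.05. Cxcl12, a chemokine cut by DPP4, averaged 6.00 ± 0.45 in the tumours labelled aSMA depleted, against 5.02 ± 0.06 in the aSMA-TK controls (SD, n = 3 each), a difference of 0.98 ± 0.26 with an adjusted p of 0.944 in limma. However, Cxcl12 was above background on 0 of 12 arrays, and 5 of the 19 genes were above it on 6 or more arrays. Of 4 PDGF ligands, 3 were higher and 1 lower in each line, and 0 were above background on 6 or more arrays. Of 7 partners of podoplanin, 5 were higher in the FAP line and 6 in the aSMA line, including Msn, the cytoskeletal linker moesin, with a difference of 1.63 ± 0.95 in the aSMA line. None of the PDGF ligands or podoplanin partners passed an adjusted p of 0.05 in either line, where 0% of all genes did.

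The marker lists of the tumour's cell types give the setting of these levels. Of 16 matrix genes common to fibroblasts, 12 were lower in the FAP line, with a median of -0.46, and 15 were higher in the aSMA line, with a median of 0.45. Their mean level was 7.49 to 9.86 in the FAP depleted tumours, against 8.63 to 9.91 in the FAP-TK controls, and the lowest of the 12 arrays was again FAP depleted replicate 2. In the aSMA line it was 9.38 to 10.7 in the tumours labelled depleted, against 8.91 to 9.60 in the aSMA-TK controls. In the FAP line all 8 measured acinar markers were higher, with a median of 1.96, as were all 10 ductal and tumour epithelial markers, with a median of 0.89. In the aSMA line 4 acinar markers were higher and 4 lower, and 5 ductal and epithelial markers were higher and 5 lower. Of all genes, 40.1% lay below 0 in the FAP line and 53.2% above 0 in the aSMA line. Macrophage markers had their lowest means on FAP depleted replicate 2 (7.55) and FAP-TK control replicate 1 (7.70), the arrays that were also low for most members. Of these 10 markers, 9 were higher in the aSMA line, with a median of 0.55, and 7 were lower in the FAP line, with a median of -0.41. In every list named here 0 genes passed an adjusted p of 0.05 in either depletion comparison, and the part of tissue makeup or array quality in the members' levels was not tested.

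**Figure D5:**
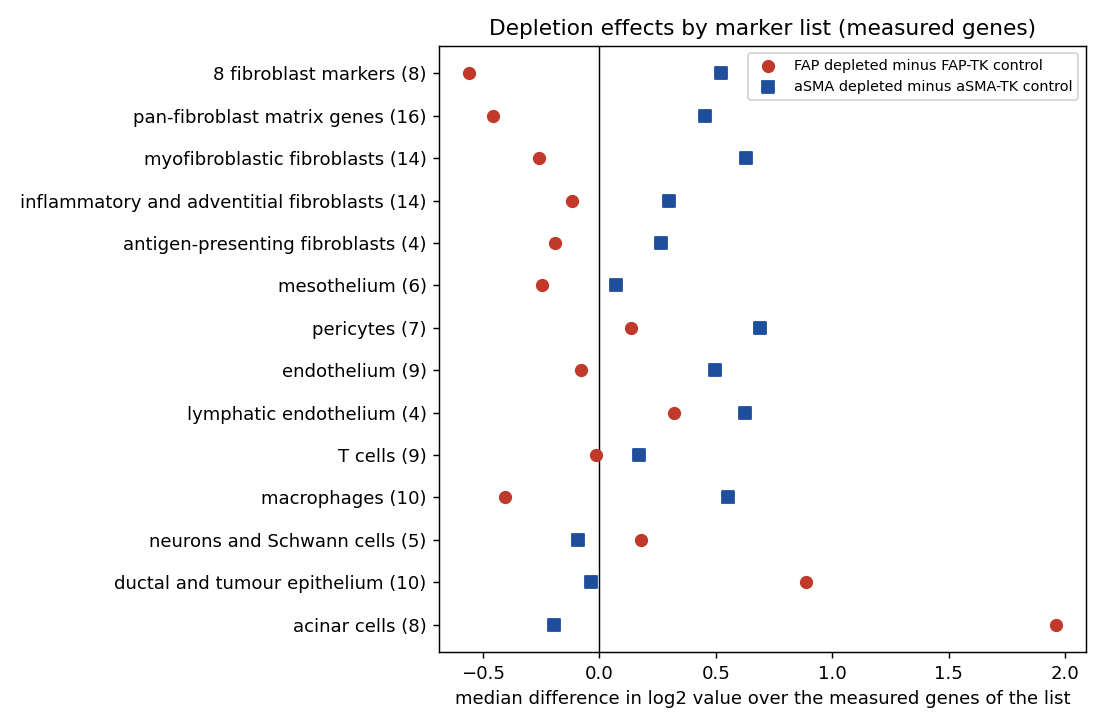
Median log2 difference of the 8 measured members and of the measured genes of each cell-type marker list (number in brackets), FAP depleted minus FAP-TK control and aSMA depleted minus aSMA-TK control. Fibroblast matrix genes lay at -0.46 in the FAP line and 0.45 in the aSMA line, and acinar markers lay at 1.96 in the FAP line and -0.19 in the aSMA line.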

How the data were processed

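Total RNA of 12 tumours was measured on 1-colour arrays, and the labels' protocols name a labelling kit for Illumina arrays although the probe set names are those of an Affymetrix whole-transcript design. The authors deposited log2 values for 72688 probe sets, per the values themselves. The submitters' processing notes name limma, whereas background correction, summarization and genome build were not given in the sources used here. Precision is limited by the number of arrays.

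The 65956 probe sets that were not controls were quantile normalized in Python 3.11.15 with NumPy 2.4.6 and pandas 2.3.3. The fits described below used limma 3.58.1 in R 4.3.3. The platform annotation gave 1 symbol to 30604 probe sets and several to 2146, which were left out, and 827 symbols were updated. The probe set of highest mean stood for each of 30142 genes, and no filter on dim genes was applied. limma fitted 1 mean per group over all 12 arrays, with two-sided moderated tests and Benjamini-Hochberg adjustment over all genes, and its script was tested on simulated data. Exact permutation tests compared 3 with 3 tumours. Correlations were permuted 100000 times (NumPy, with ranks from SciPy 1.17.1) over the 28 pairs that 8 measured genes allow.

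Replicates are separate mice, numbered in accession order. All members were named in the text, and from each list up to 2 genes: those passing the threshold, otherwise those of smallest p in the direction of the list's median. The members and lists were chosen with earlier results of these data known. Alternatives covered the normalization, a filter on dim genes, the probe set rule, the samples in the fit, the variance model, array weights, the arrays of low control-probe separation, and each array left out in turn.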

Additional observations from a re-analysis of the deposited data

How the results depend on the processing

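No paired analysis was possible because replicate numbers follow accession order. In both depletion comparisons 0 of 8 members passed under every setting tried. Between the control groups the genes passing numbered 2350, against 12443 in the values as deposited, 5769 after median centring, 0 after the filter on dim genes (which kept 2 members), 212 with the compared groups alone, 6658 with array weights, 357 without the 3 arrays of low control-probe separation, and 508 to 3130 with 1 array left out. Of those passing, 61.3% were higher in the aSMA-TK controls, against 3.41% in the values as deposited and 57.9% after centring. Members passing there were 2 as deposited (Fap and Dpp4) and 1 after centring (Fap). For any difference among the groups the counts were 2014, and 14286, 4998, 20, 7235 and 515 under deposited values, centring, filter, weights and without low-separation arrays, and 871 to 2477 with 1 array left out, and 1 member, Fap, passed as deposited. Genes passing in the FAP line were 13 without the low-separation arrays and 0 to 4 with 1 array left out, in the aSMA line 0 to 16 and for the difference between lines 0 to 1. Correlated pairs were 4 without the low-separation arrays and 3 to 23 with 1 array left out.

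Control differences (aSMA-TK minus FAP-TK) changed sign for Dpp4 (-0.77 as deposited, -0.32 centred, -0.048 weighted, -0.22 without low-separation arrays), Pdgfrb (-0.71, -0.26 and -0.94 as deposited, centred and without those arrays), Thy1 (-0.66, -0.22 and -1.27) and Lrrc15 (-0.45, -0.0030 and -0.31). With array weights Pdgfrb became 0.42 in the FAP line and Lrrc15 -0.021 in the aSMA line. With 1 array left out, differences ranged across 0 in the FAP line for Pdgfrb (-1.02 to 0.25) and Pdpn (-1.13 to 0.16), in the aSMA line for Fap (-0.052 to 0.57), Thy1 (-0.21 to 0.87), Lrrc15 (-0.77 to 0.46) and S100a4 (-0.050 to 0.57), between controls for Dpp4 (-0.17 to 0.15), Pdgfrb (-0.12 to 0.88), Pdpn (-0.68 to 0.35), Thy1 (-0.44 to 0.99), Lrrc15 (-0.20 to 0.41) and S100a4 (-0.51 to 0.22), and between lines for Lrrc15 (-0.27 to 0.96). The cause was not tested. Signal over background limits Fap, Dpp4, Lrrc15 and S100a4 most, since none was above background on any array.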

Other observations

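Related genes of 3 members were counted as families. Of 9 other classical and type II cadherins, 9 were higher in the FAP line, with a median of 0.48, whereas Cdh11 differed by -1.61. In that comparison 40.1% of all genes lay below 0, and 2 of the 9 cadherins were above background on 6 or more arrays. Cdh6, a kidney and epithelial cadherin, averaged 7.21 ± 0.81 in the FAP depleted tumours, against 5.80 ± 0.53 in the FAP-TK controls (SD, n = 3 each). In the aSMA line Cdh2, the N-cadherin of mesenchymal and neural cells, differed by 1.31 ± 0.34 (limma, SE, adjusted p = 0.944). Cdh6 was above background on 1 array and Cdh2 on 0.

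Of 11 other S100 genes measured, 10 were lower in the aSMA line, with a median of -0.52, whereas S100a4 differed by 0.28. In that comparison 53.2% of all genes lay above 0. Background was passed on 6 or more arrays by 3 of the 11 genes, and by S100a14, named next, on 1 array. S100a14, an epithelial member, averaged 7.03 ± 1.18 in the tumours labelled aSMA depleted, against 8.70 ± 0.87 in the aSMA-TK controls (SD, n = 3 each), and differed by 2.03 ± 0.81 in the FAP line. Of 9 Ly6 family genes, 8 were higher in the FAP line, where 40.1% of all genes lay below 0, with a median of 0.46. Of the 9, 5 were above background on 6 or more arrays. Ly6c2, which marks inflammatory monocytes, differed by 2.15 ± 1.00 and Ly6c1 by 1.48 ± 0.74 in that line. In these 3 families 0 genes passed an adjusted p of 0.05 in limma in either depletion comparison, and the difference between a member and its family was not tested.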
